A study of Mus musculus with 9 samples.

Results

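Monocytes and macrophages are recognised by a small set of genes, and the mRNA of 10 of them was followed here in 3 mouse myeloid cell lines. The genes were chosen by name as markers of monocyte and macrophage identity: *Lyz1*, *Lyz2*, *Ly6c2*, *Cd68*, *Mpeg1*, *Adgre1*, *Ms4a6c*, *Fn1*, *F13a1* and *Ly86*. Earlier results of these data were known when they were chosen. All 10 were found among the 54347 genes of the table. The progenitor lines Hox-WT and Hox-URE were derived from c-Kit+ bone marrow cells of a mouse each, immortalized with Hoxb8-ER, a fusion protein that needs estradiol to act. The Hox-WT line is wild type, whereas Hox-URE carries UREd/d, a deletion of the upstream regulatory element (URE), which enhances transcription of *Spi1* and thereby the supply of PU.1, a transcription factor of myeloid cells. URE-AML, with the label B22, is a line of acute myeloid leukemia (AML) blasts of the same UREd/d genotype. All 3 lines were kept in IMDM with 20% FCS, IL-3, IL-6 and SCF at 10 ng/ml each, and ß-estradiol, and none of the labels names an inducer of monocyte differentiation. Each genotype and stage is represented by a single line. The authors describe URE-AML as grown from blasts by repeated culture with IL-3 and name no Hoxb8-ER for it. Differences of URE-AML from the other lines therefore cannot be told apart from how the lines were made. Each line was measured in 3 libraries, which are called 1, 2 and 3 as in the labels. Nothing in the sources used here says whether these came from separate cultures, so p-values measure the spread between libraries of a line, which may be technical.

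Monocytes arise from granulocyte-monocyte progenitors in the bone marrow, and PU.1 together with IRF8 drives their formation while C/EBP factors favour neutrophils. Classical mouse monocytes carry Ly6C on their surface and leave the marrow for inflamed tissue, where they can become macrophages, which gain F4/80, lysosomal proteins and receptors for engulfing cells. Genes used as monocyte markers differ in how strictly they mark the lineage. Lysozyme and Ly6C also appear in neutrophil precursors, whereas F4/80 is more restricted to monocytes, macrophages and eosinophils.

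Libraries held 25857565 to 28588718 counts for Hox-WT, 20879183 to 28300453 for Hox-URE and 20331064 to 23907360 for URE-AML. Here, 3 counts in a library corresponded to 0.104 to 0.153 CPM (counts scaled to a common library size with TMM factors), which was taken as the limit that a count of 0 allows, for counting error only. *Spi1* had 2932, 2832 and 2791 counts in Hox-WT, 1, 1 and 0 in Hox-URE, and 62, 116 and 148 in URE-AML. The targeted gene was thus lowest in the libraries labelled Hox-URE and intermediate in URE-AML, with no overlap between any of the lines. In bulk RNA, fewer cells of a type and less RNA per cell cannot be told apart, which holds for every difference reported here.

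Hox-URE held less mRNA of most of the genes than Hox-WT did, whereas URE-AML had an uneven set, with *Ly6c2* and *F13a1* above Hox-WT and *Adgre1*, *Ms4a6c* and *Ly86* far below it. Of the 10 genes, 9 passed the filter on low counts and were tested. *Mpeg1*, *Ms4a6c* and *Ly86* passed it only through Hox-WT, the line in which they were highest, so a difference was built into their selection. Calls required an edgeR adjusted p under 0.05 together with a more than 1.5-fold change. Comparing Hox-URE with Hox-WT, 0 of the 9 genes were called higher and 7 lower, or 0 and 4 of the 6 genes that passed through more than 1 line, where 21.3% and 15.9% of all 13082 genes tested were called (37.2% in either direction). Comparing URE-AML with Hox-WT, 4 were called higher and 5 lower, or 4 and 2 of the 6, with 23% and 20.2% of all genes (43.2% in either direction). Comparing URE-AML with Hox-URE, 4 were called higher and 1 lower, or 3 and 1 of the 6, with 20.3% and 22.4% of all genes (42.7% in either direction). The 3 comparisons share libraries and are not independent of each other. Over the 6 genes, the median log2 fold change relative to Hox-WT was -3.67 for Hox-URE and 1.16 for URE-AML, and that of URE-AML relative to Hox-URE was 2.34, whereas the median of all tested genes was 0.00 in each comparison.

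**Figure D1:**
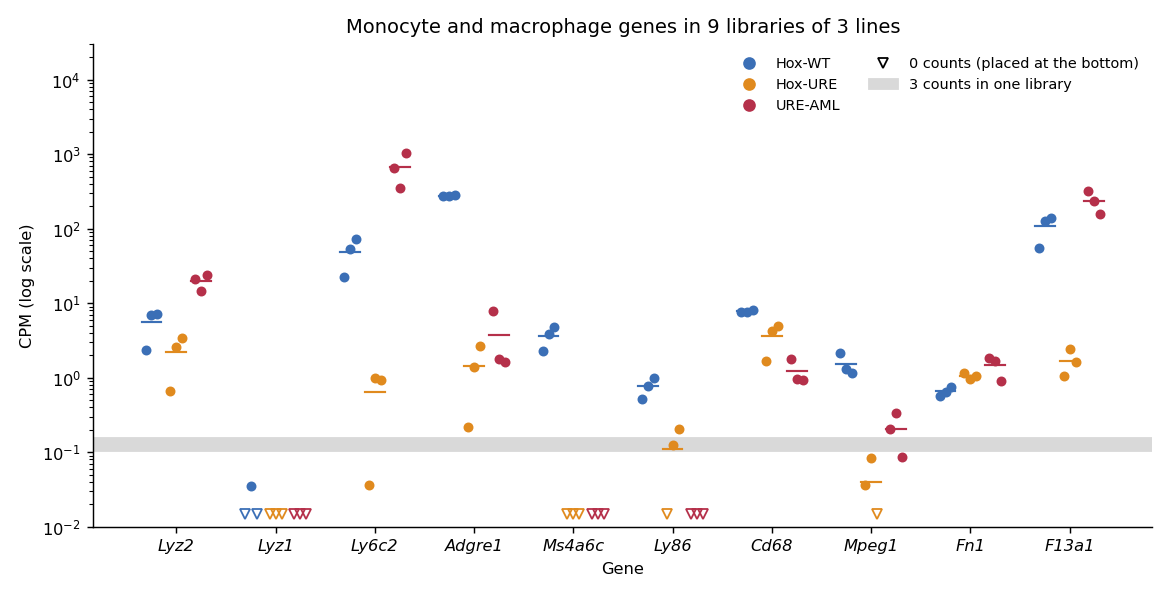
Level of each of the 10 genes in CPM on a log scale, with 1 point per library, a short line for the mean of the 3 libraries of a line, open triangles for libraries with 0 counts and a grey band where 3 counts in a library fall. *Ly6c2* and *F13a1* are highest in URE-AML, *Adgre1* stands apart in Hox-WT at 270 to 280 CPM, and *Ms4a6c* has counts in Hox-WT and in neither of the other lines.

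The lysozymes are secreted enzymes that cut bacterial cell walls. *Lyz1* is mainly known from Paneth cells of the gut and *Lyz2* from macrophages and granulocytes. *Lyz1* (ENSMUSG00000069515, chr10:117287797-117292868, minus strand, GRCm38) was practically not detected: library 2 of Hox-WT held 1 count, and the other 8 libraries held 0. Its neighbour *Lyz2* (ENSMUSG00000069516, chr10:117277331-117282321, minus strand) had 2.32, 7 and 7.23 CPM in Hox-WT, 0.656, 2.61 and 3.37 CPM in Hox-URE, and 20.8, 14.6 and 23.9 CPM in URE-AML. All URE-AML libraries stood above those of both other lines, whereas Hox-WT and Hox-URE overlapped through the low library 1 of Hox-WT. *Lyz2* was higher in URE-AML than in Hox-WT by 1.84 ± 0.50 (log2 fold change ± SE, edgeR adjusted p = 0.00983) and higher than in Hox-URE by 3.19 ± 0.55 (edgeR adjusted p = 0.00063). Its log2 fold change of -1.35 ± 0.54 between Hox-URE and Hox-WT was not called (edgeR adjusted p = 0.0581). That call depended on the setting, since *Lyz2* was called lower under 6 of 17 alternatives, among them DESeq2 (adjusted p = 0.0239) and the fit without library 1 of Hox-WT (edgeR adjusted p = 0.0174). The transcripts of the pair are similar, and 32.8% of the 31-base words of *Lyz2* also occurred in *Lyz1*. Summing both genes before the fit gave log2 fold changes of -1.35, 1.83 and 3.19 for Hox-URE and URE-AML relative to Hox-WT and for URE-AML relative to Hox-URE.

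Of the genes with products at the cell surface, *Ly6c2* encodes Ly6C, the lipid-anchored antigen by which classical monocytes are sorted. *Adgre1* encodes the adhesion receptor F4/80, the standard surface marker of mouse macrophages. *Ms4a6c* belongs to a family of membrane-spanning proteins, and *Ly86* encodes MD-1, the soluble partner of the receptor RP105.

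*Ly6c2* (ENSMUSG00000022584, chr15:75108158-75111970, minus strand) ranged from near 0 to one of the more abundant mRNAs between the lines. It had 22.1, 53.8 and 71.9 CPM in Hox-WT, 0.0364, 0.995 and 0.92 CPM in Hox-URE, and 645, 347 and 1021 CPM in URE-AML. No library of a line overlapped with those of another, although the libraries within each line also differed widely. Its log2 fold change was -6.32 ± 0.74 in Hox-URE relative to Hox-WT (edgeR adjusted p = 6.29e-05). In URE-AML it exceeded Hox-WT by 3.77 ± 0.55 on the log2 scale (edgeR adjusted p = 0.000198) and Hox-URE by 10.08 ± 0.80 (edgeR adjusted p = 2.68e-06). Library 1 of Hox-URE, with a single count, weighed on the 2 comparisons of that line, whose log2 fold changes were -5.68 and 9.44 without it. Corrected for transcript length, *Ly6c2* in URE-AML stood above 99.2% of all tested genes, against 89.6% in Hox-WT and 20.2% in Hox-URE. Its paralog *Ly6c1* shared 21.4% of the 31-base words of *Ly6c2*, so the split of reads between the pair is uncertain. *Ly6c1* was at 0.791 ± 0.461 CPM for Hox-WT, 0.658 ± 0.483 for Hox-URE and 11.3 ± 4.79 for URE-AML (SD, n = 3), and the sum of both genes was called in the same directions, with log2 fold changes of -5.33, 3.77 and 9.10.

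Changes of *F13a1*, which encodes the A subunit of the clotting enzyme factor XIII and is a marker of classical monocytes and some macrophages, went the same way. It lies at chr13:36867178-37050244 on the minus strand (ENSMUSG00000039109). Levels were 55.4, 127 and 137 CPM in Hox-WT, 1.06, 2.4 and 1.63 CPM in Hox-URE, and 322, 233 and 159 CPM in URE-AML. The lines did not overlap, and the highest library of Hox-WT came close to the lowest of URE-AML. *F13a1* had log2 fold changes of -5.98 ± 0.47 in Hox-URE relative to Hox-WT (edgeR adjusted p = 3.86e-06) and 7.14 ± 0.49 in URE-AML relative to Hox-URE (edgeR adjusted p = 9.1e-07). The difference between URE-AML and Hox-WT was smaller, with 1.16 ± 0.35 (edgeR adjusted p = 0.0162), and was lost without library 1 of URE-AML (0.88, edgeR adjusted p = 0.07).

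The promoters of both genes are shown because *Ly6c2* and *F13a1* had the highest levels in URE-AML, and each was the nearest in pattern to the other among the 9 genes tested. They stand next to those of *Ms4a6c* and *Mpeg1*, which were near 0 in both URE-deleted lines. RefSeq promoter sequences (GRCm38.p6) were at hand for 8 of the 10 genes, all but *Adgre1* and *Fn1*, and the 250 bases before the transcription start were searched. Capitals mark GAGGAA, the core that PU.1 prefers, or TTCCTC on the other strand. The 4 sequences run 5′ to 3′ on the strand of the gene, at chr15:75111972-75112221 (minus strand) for *Ly6c2*, chr13:37050245-37050494 (minus strand) for *F13a1*, chr19:11469118-11469367 (plus strand) for *Ms4a6c* and chr19:12460520-12460769 (plus strand) for *Mpeg1*.
Ly6c2: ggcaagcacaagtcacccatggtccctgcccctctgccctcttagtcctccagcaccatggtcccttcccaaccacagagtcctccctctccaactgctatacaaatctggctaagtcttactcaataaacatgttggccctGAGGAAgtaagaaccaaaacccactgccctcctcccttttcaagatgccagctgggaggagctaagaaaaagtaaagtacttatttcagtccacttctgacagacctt
F13a1: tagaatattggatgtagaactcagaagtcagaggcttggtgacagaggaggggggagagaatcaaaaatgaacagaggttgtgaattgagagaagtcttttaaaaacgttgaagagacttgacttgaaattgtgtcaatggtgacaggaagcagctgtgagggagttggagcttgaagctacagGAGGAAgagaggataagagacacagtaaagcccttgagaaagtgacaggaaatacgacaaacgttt
Ms4a6c: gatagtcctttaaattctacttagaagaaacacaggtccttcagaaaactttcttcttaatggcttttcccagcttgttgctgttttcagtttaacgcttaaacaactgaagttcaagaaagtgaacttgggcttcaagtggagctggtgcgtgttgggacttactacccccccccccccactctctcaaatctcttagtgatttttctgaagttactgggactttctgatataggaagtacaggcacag
Mpeg1: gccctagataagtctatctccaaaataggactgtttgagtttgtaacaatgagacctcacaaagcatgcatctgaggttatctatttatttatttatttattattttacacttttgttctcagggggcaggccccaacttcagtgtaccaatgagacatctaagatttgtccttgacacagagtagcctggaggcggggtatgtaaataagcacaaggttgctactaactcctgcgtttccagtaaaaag
The motif began at position -108 in *Ly6c2*, counted back from the transcription start, and at position -66 in *F13a1*, both on the strand of the gene. *Cd68* held it at position -225, so that 3 of the 8 genes had the motif, whereas 23.3% of all 32851 promoters in the table did. TGTGGT, the core bound by RUNX factors, or ACCACA on the other strand was present in 2 of the 8 genes, *Lyz2* and *Ly6c2* (14% of all promoters). TTGCNNAA, a form of the C/EBP site, or TTNNGCAA was present in 2, *Lyz1* and *Cd68* (9.56%). These letters describe the windows and say nothing on binding, and *Ly6c2* and *F13a1* each had a second RefSeq start that was not printed. The window of the second start held the PU.1 letters at positions -142 and -8 for *Ly6c2*, whereas that of *F13a1* did not hold them.

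*Adgre1* (ENSMUSG00000004730, chr17:57358691-57483527, plus strand) had the largest fitted loss in Hox-URE among the genes with counts in every library. It had 272, 270 and 280 CPM in Hox-WT, 0.219, 1.41 and 2.66 CPM in Hox-URE, and 7.79, 1.76 and 1.63 CPM in URE-AML. Both URE-deleted lines lay far below all Hox-WT libraries and overlapped with each other. The log2 fold change against Hox-WT was -7.67 ± 0.71 in Hox-URE (edgeR adjusted p = 1.17e-05) and -6.17 ± 0.64 in URE-AML (edgeR adjusted p = 1.73e-05). Single libraries moved these sizes, to -8.45 without library 3 of Hox-URE and to -7.33 without library 1 of URE-AML, but ended neither call. The 2.82-fold higher level of URE-AML over Hox-URE (SE 0.72 on the log2 scale) was not called (edgeR adjusted p = 0.1). Its log2 fold change was 0.34 without library 1 of URE-AML and became 2.26, with a call, without library 3 of Hox-URE (edgeR adjusted p = 0.0392), and it was also called at 1.51 when low counts were not filtered (edgeR adjusted p = 0.0235).

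*Ms4a6c* (ENSMUSG00000079419, chr19:11469366-11482192, plus strand) was detected in Hox-WT alone. There it had 61, 108 and 138 counts, or 3.64 ± 1.26 CPM (SD, n = 3), while all 6 libraries of Hox-URE and URE-AML held 0. Against the floor of 3 counts per library, Hox-URE was at least 28.2-fold lower (edgeR adjusted p = 0.000201) and URE-AML at least 27.8-fold lower (edgeR adjusted p = 0.000153). Its paralogs were also highest in Hox-WT. *Ms4a6b*, which shares 13.9% of the 31-base words of *Ms4a6c*, had 2.59 ± 0.626 CPM for Hox-WT, 0.157 ± 0.0491 for Hox-URE and 0 for URE-AML. *Ms4a6d* had 1.58 ± 0.525, 0.788 ± 0.358 and 0.0317 ± 0.0549 CPM, and its difference between Hox-URE and Hox-WT was not called (log2 fold change -0.98 ± 0.52, edgeR adjusted p = 0.139).

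*Ly86* (ENSMUSG00000021423, chr13:37345208-37419036, plus strand) was low throughout. It had 14, 22 and 29 counts in Hox-WT, 0, 3 and 4 in Hox-URE, and 0 in each library of URE-AML. Hox-WT stood above both other lines in every library, with 0.771 ± 0.239 CPM (SD, n = 3). Hox-URE was lower by a ratio of 7.91 (95% counting interval 3.63 to 20.4, edgeR adjusted p = 0.0128) and URE-AML at least 5.89-fold lower (edgeR adjusted p = 0.00133). The fitted log2 fold change in Hox-URE was -2.87 ± 0.76, and was -2.23 without library 1 and -3.61 without library 3 of that line. The 7 counts of Hox-URE against 0 of URE-AML gave no call (edgeR adjusted p = 0.0535), although DESeq2 (adjusted p = 0.0389) and 2 other alternatives called it. *Cd180*, which encodes RP105, was chosen for mention after its values were seen: it had 208, 419 and 313 counts in Hox-WT and 0 in all libraries of the other 2 lines.

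Inside the cell, *Cd68* encodes macrosialin, a glycoprotein of the lysosome membrane, and *Mpeg1* encodes perforin-2, a pore-forming protein of the phagosome. *Cd68* (ENSMUSG00000018774, chr11:69664213-69666153, minus strand) had 7.65, 7.5 and 8.13 CPM in Hox-WT, 1.68, 4.23 and 5.01 CPM in Hox-URE, and 1.78, 0.951 and 0.944 CPM in URE-AML. The even level of Hox-WT lay above all other libraries, and a single library of URE-AML exceeded the lowest one of Hox-URE. *Cd68* was lower in both URE-deleted lines and lowest in URE-AML, with a log2 fold change of -1.10 ± 0.37 in Hox-URE (edgeR adjusted p = 0.0295) and -2.65 ± 0.41 in URE-AML against Hox-WT (edgeR adjusted p = 0.000273), and -1.55 ± 0.41 in URE-AML against Hox-URE (edgeR adjusted p = 0.00775). The first of these was lost without any 1 library of Hox-WT, at edgeR adjusted p of 0.0623, 0.0614 and 0.0722 without libraries 1, 2 and 3.

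*Mpeg1* (ENSMUSG00000046805, chr19:12460779-12465283, plus strand) had 57, 37 and 33 counts in Hox-WT, 1, 2 and 0 in Hox-URE, and 5, 7 and 2 in URE-AML. Hox-WT was well above the other lines, and the lowest library of URE-AML was level with the highest of Hox-URE in counts. In Hox-URE, *Mpeg1* was lower than in Hox-WT by a ratio of 36 (95% counting interval 12.1 to 177, edgeR adjusted p = 0.000171). Its log2 fold change was -2.88 ± 0.55 in URE-AML relative to Hox-WT (edgeR adjusted p = 0.00119). The ratio of 4.81 between URE-AML and Hox-URE (95% counting interval 1.34 to 26.1) just passed the threshold (edgeR adjusted p = 0.0457) and was lost under 8 of 15 alternatives, DESeq2 among them (adjusted p = 0.0608). Without library 2 of Hox-URE, which held 2 of the 3 counts, the fitted log2 fold changes of these comparisons with Hox-URE were -5.90 and 3.01, in place of -5.03 and 2.16.

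*Fn1* (ENSMUSG00000026193, chr1:71585520-71653200, minus strand), which encodes the matrix protein fibronectin and is made by monocytes as well as by stromal cells, was low in all lines and had its lowest mean in Hox-WT. It had 15, 18 and 22 counts in Hox-WT, 32, 23 and 21 in Hox-URE, and 46, 35 and 21 in URE-AML, or 0.655 ± 0.0999, 1.06 ± 0.106 and 1.47 ± 0.506 CPM (SD, n = 3). In CPM the libraries of Hox-WT lay below those of both other lines, which overlapped. *Fn1* was called higher in URE-AML than in Hox-WT, with a log2 fold change of 1.16 ± 0.35 (edgeR adjusted p = 0.0155). Leaving out library 1 of Hox-WT or library 1 or 2 of URE-AML ended that call (edgeR adjusted p = 0.0582, 0.0643 and 0.0541). Neither Hox-URE against Hox-WT (0.69 ± 0.35, edgeR adjusted p = 0.123) nor URE-AML against Hox-URE (0.47 ± 0.34, edgeR adjusted p = 0.265) was called. Of 8 genes that mark stromal cells, 5, 5 and 7 were at 0 in all libraries of the lines in the order Hox-WT, Hox-URE, URE-AML, and their summed level was 16.7 to 20.4, 46.9 to 76.1 and 10.3 to 20.1 CPM, with at least 79.6% of it from *Pdgfrb* in each line. Its part in the level of *Fn1* was not tested.

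**Figure D2:**
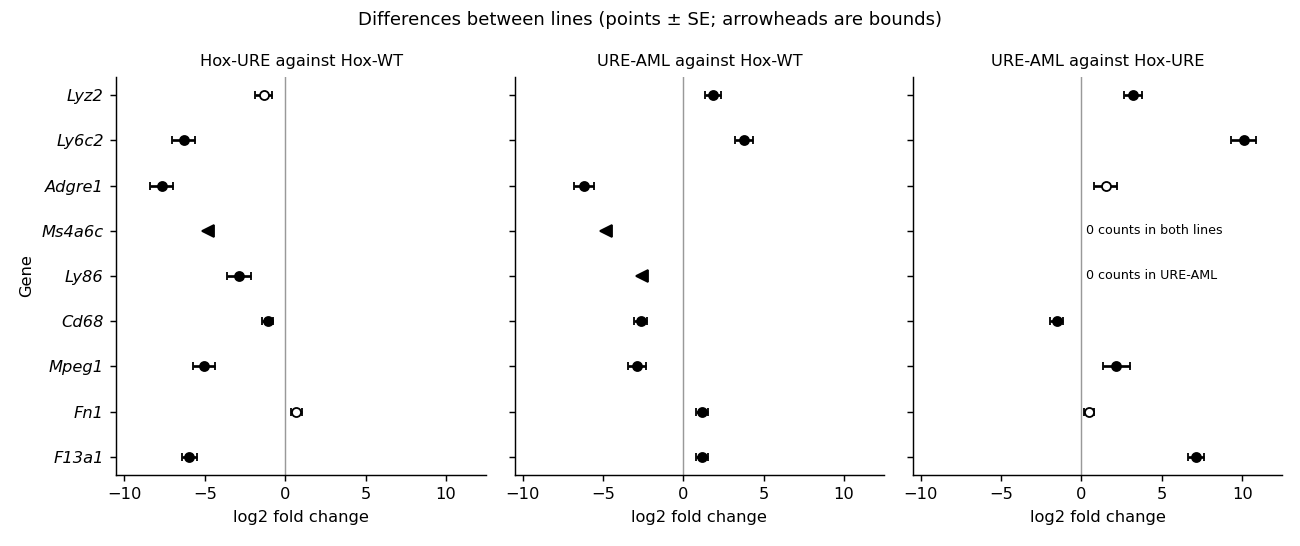
Log2 fold change of the 9 tested genes in the 3 comparisons, with SE as bars. Filled points were called, open points were not, and arrowheads give the smallest change that a floor of 3 counts per library allows. *Lyz2*, *Ly6c2* and *F13a1* lie left of 0 in Hox-URE against Hox-WT and right of it in both comparisons of URE-AML, whereas *Adgre1*, *Ms4a6c*, *Ly86*, *Cd68* and *Mpeg1* lie left of 0 in both comparisons with Hox-WT.

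Ordered by level, the lines thus gave 3 patterns. URE-AML was followed by Hox-WT and then Hox-URE for *Ly6c2*, *F13a1* and *Lyz2*, with Hox-WT and Hox-URE not told apart for *Lyz2*. Hox-WT was above both URE-deleted lines for *Adgre1*, *Ms4a6c*, *Ly86*, *Cd68* and *Mpeg1*, and the 2 URE-deleted lines differed for *Cd68* (Hox-URE higher) and, at the threshold and under 7 of 15 alternatives, for *Mpeg1* (URE-AML higher, 14 counts against 3). For *Fn1*, URE-AML was above Hox-WT, and Hox-URE, in between, was told apart from neither. The libraries of Hox-URE and Hox-WT did not overlap for 8 of the 9 genes, against 60.3% of all tested genes, those of URE-AML and Hox-WT for all 9, against 67.6%, and those of URE-AML and Hox-URE for 4, against 62.8%. The last of these counts includes *Mpeg1*, for which 2 counts gave 0.0858 CPM in URE-AML library 3 and 0.0829 CPM in Hox-URE library 2. That separation came from library scaling alone. Without *Mpeg1*, *Ms4a6c* and *Ly86*, whose gap to Hox-WT was built in by the filter, the 3 comparisons gave 5, 6 and 3 of 6 genes.

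Per transcript length, which allows genes to be compared, the summed level of the 10 genes was 347 in Hox-WT (scaled so that all genes sum to the same total in each library), 10.9 in Hox-URE and 1644 in URE-AML (means of 3 libraries). The single libraries ranged from 260 to 414, from 4.12 to 15.4 and from 923 to 2341. Its make-up differed between the lines. In Hox-WT, *Adgre1* gave 45.8% of the sum, *Ly6c2* 32.3% and *F13a1* 14.5%. The small sum of Hox-URE came mostly from *Cd68* (45.3%) and *Lyz2* (25.7%), followed by *Ly6c2* (12.1%). In URE-AML, *Ly6c2* alone gave 91.2% and *F13a1* 6.81%, while *Adgre1* gave 0.131% and *Cd68* 0.112%. Without *Ly6c2*, Hox-WT summed to 235, Hox-URE to 9.57 and URE-AML to 144, so that URE-AML stood below Hox-WT and still above Hox-URE.

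**Figure D3:**
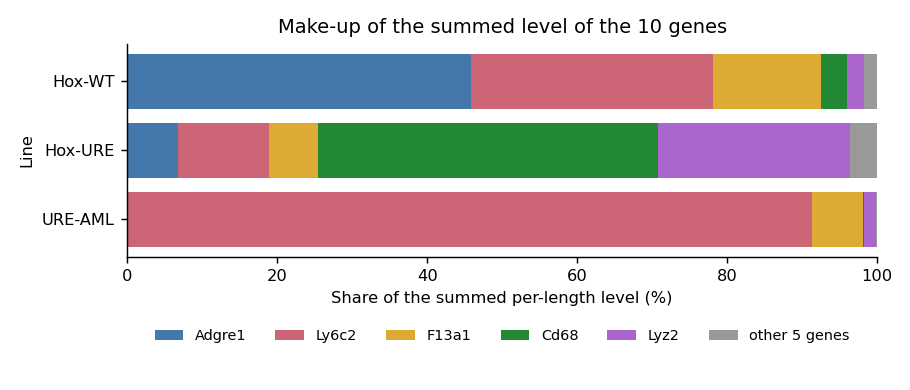
Share of each gene in the summed per-length level of the 10 genes, as stacked bars from 0 to 100% for each line. *Adgre1* and *Ly6c2* lead in Hox-WT, *Cd68* and *Lyz2* in Hox-URE, and *Ly6c2* fills 91.2% of the bar of URE-AML.

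The genes also varied between libraries of a line. In Hox-WT, the highest library was 3.25 times the lowest for *Ly6c2*, 3.11 times for *Lyz2* and 2.47 times for *F13a1*, but 1.08 times for *Cd68* and 1.04 times for *Adgre1*. The median over all genes was 1.21. Library 1 was the lowest of Hox-WT for 6 of the 9 genes with counts in every library, whereas it was lowest for 37% of all genes. In Hox-URE, library 1 was lowest for 5 of 6 genes (42.2% of all genes), and *Ly6c2* and *Adgre1* varied by 27.3 and 12.2 times there. In URE-AML, library 1 was lowest for 0 of 7 genes and library 3 for 5 (34.2% of all genes). The summed level of 12 neutrophil genes was lowest in library 1 of every line, with 5674 CPM against 9010 and 9087 for Hox-WT, 2623 against 3783 and 4011 for Hox-URE, and 11501 against 17824 and 26301 for URE-AML. Single genes weighed on this sum: *Mpo* gave 63.6% of it in Hox-WT, *Ctsg* 95.8% in Hox-URE and *Elane* 39.4% in URE-AML. In URE-AML, *Lyz2* and *Ly6c2* were highest in library 3, as was the neutrophil sum, but lowest in library 2. There *F13a1* was highest in library 1 and lowest in library 3. The part of the neutrophil genes in the levels of *Ly6c2*, *Lyz2* and *F13a1* was not tested.

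Likeness of pattern was measured as the root mean square difference between genes of their log2 CPM over the 9 libraries, after centring each gene on its mean. Among the 9 genes, *Cd68* and *Ly86* were each nearest to the other (0.55), as were *Lyz2* and *Fn1* (1.48) and *Ly6c2* and *F13a1* (1.61). The gene nearest to *Mpeg1* was *Ly86* (1.21), that nearest to *Ms4a6c* was *Mpeg1* (1.35), and that nearest to *Adgre1* was *Ms4a6c* (1.44). Between *Cd68* and *Ly6c2*, 2 markers of the same lineage, it was 4.84. In each case other genes of the table came closer. The nearest tested gene to *Ly6c2* was *S100a11* (1.04), with mean levels of 32.7, 0.187 and 322 CPM in the order Hox-WT, Hox-URE, URE-AML. To *F13a1* it was *S100a10* (0.58), with 28.1, 0.143 and 55.5 CPM. *Olfm1* was nearest to *Adgre1* (0.91), *Mchr1* to *Ms4a6c* (0.22), *Tmem53* to *Lyz2* (0.49), *Cisd1* to *Cd68* (0.26), *N4bp2l1* to *Mpeg1* (0.35), *Osbpl8* to *Ly86* (0.39) and *Arhgef7* to *Fn1* (0.19). Low genes are drawn together by this measure, since a prior count of 2 is added before the log is taken.

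Of 8 transcription factors of the monocyte lineage, 5 were tested, of which 0 were called higher and 5 lower comparing Hox-URE with Hox-WT (21.3% and 15.9% of all genes), 0 and 3 comparing URE-AML with Hox-WT (23% and 20.2%), and 3 and 1 comparing URE-AML with Hox-URE (20.3% and 22.4%). Of the 5, *Irf5* passed the filter only through Hox-WT, and the calls of the other 4 were 0 and 4, 0 and 2, and 3 and 1. For *Spi1*, Hox-WT exceeded Hox-URE by a ratio of 3642 (95% counting interval 1008 to 30077) and URE-AML exceeded it by a ratio of 168 (46.1 to 1392), while URE-AML was below Hox-WT with a log2 fold change of -4.42 ± 0.28 (edgeR adjusted p = 4.53e-07). *Irf8*, which directs progenitors towards monocytes, had 144, 244 and 237 counts in Hox-WT, 5, 3 and 4 in Hox-URE, and 165, 85 and 41 in URE-AML. It was lower in Hox-URE (log2 fold change -5.42 ± 0.56, edgeR adjusted p = 2.64e-05), whereas URE-AML was not told apart from Hox-WT (-0.84 ± 0.40, edgeR adjusted p = 0.0994) unless library 1 of URE-AML was left out (-1.36, edgeR adjusted p = 0.0146). *Zeb2*, a repressor needed by several myeloid lineages, was at 23 ± 2.77, 9.71 ± 0.715 and 21.3 ± 4.33 CPM in the order Hox-WT, Hox-URE, URE-AML, and *Irf5*, a factor of inflammatory macrophages, was at 11.5 ± 3.51, 0.0828 ± 0.0376 and 0.0293 ± 0.0256 CPM (SD, n = 3). *Nr4a1*, which is required for Ly6C-low monocytes, was at 2.66 ± 2.38, 0.536 ± 0.135 and 0.0586 ± 0.0513 CPM, and its call in Hox-URE against Hox-WT was lost without library 2 of Hox-WT (log2 fold change -1.25, edgeR adjusted p = 0.0846). Its call in URE-AML against Hox-URE was lost without library 3 of URE-AML (-2.56, edgeR adjusted p = 0.0541). *Klf4* had at most 2 counts in a library and was not tested, nor was *Maf*, with 14 counts in all for Hox-URE against 1 for Hox-WT and 0 for URE-AML.

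A list of 24 other monocyte genes held genes called in both directions in every comparison. Relative to Hox-WT, 5 of 20 tested genes were called higher and 12 lower for Hox-URE (21.3% and 15.9% of all genes), and 8 and 10 for URE-AML (23% and 20.2%), while URE-AML had 11 and 5 relative to Hox-URE (20.3% and 22.4%). Of the 20, *Csf1r*, *Fcgr1*, *Cd180*, *Ms4a6b* and *Cybb* passed the filter only through Hox-WT, which built in their lower level in the other lines. Over the other 15, the calls were 5 higher and 7 lower, 8 and 5, and 10 and 4, and the median log2 fold changes were -1.05, 1.06 and 4.05 in the same order, the last being 3.77 with *Itgam*, at 0 in Hox-URE, set to its bound. *Tyrobp*, the signalling adaptor of many myeloid receptors, followed *Adgre1*, with 23.7 ± 3.42 CPM for Hox-WT, 0.0121 ± 0.021 for Hox-URE and 0.512 ± 0.462 for URE-AML. *Emilin2*, which encodes a matrix protein, followed *Ly6c2*, at 24.9 ± 5.19, 6.04 ± 1.05 and 572 ± 80.2 CPM. *Vcan* and *Lgals3*, which encode versican and galectin-3, rose in both URE-deleted lines, from 0.514 ± 0.0246 to 13.4 ± 5.36 and 173 ± 63.8 CPM for *Vcan* and from 0.142 ± 0.0565 to 14 ± 2.71 and 107 ± 25.1 CPM for *Lgals3*. In the order Hox-WT, Hox-URE, URE-AML, *Plac8* was at 655 ± 97.7, 158 ± 6.39 and 3.37 ± 1.26 CPM, and the chemokine gene *Ccl9* at 909 ± 182, 1401 ± 323 and 10.7 ± 2.11 CPM, with libraries of Hox-WT and Hox-URE overlapping for *Ccl9*. The chemokine receptor gene *Ccr2*, by which monocytes leave the marrow, was at 885 ± 49.8 CPM in Hox-URE but at 12.7 ± 1.92 in Hox-WT and 14.3 ± 3.64 in URE-AML (SD, n = 3 for all of these), so that in Hox-URE a gene of monocyte traffic was high while *Ly6c2* was near 0. *Csf1r*, the receptor for the monocyte growth factor M-CSF, was named after its values were seen. It had 13, 25 and 28 counts in Hox-WT, 0 in Hox-URE, and 1, 0 and 0 in URE-AML.

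**Figure D4:**
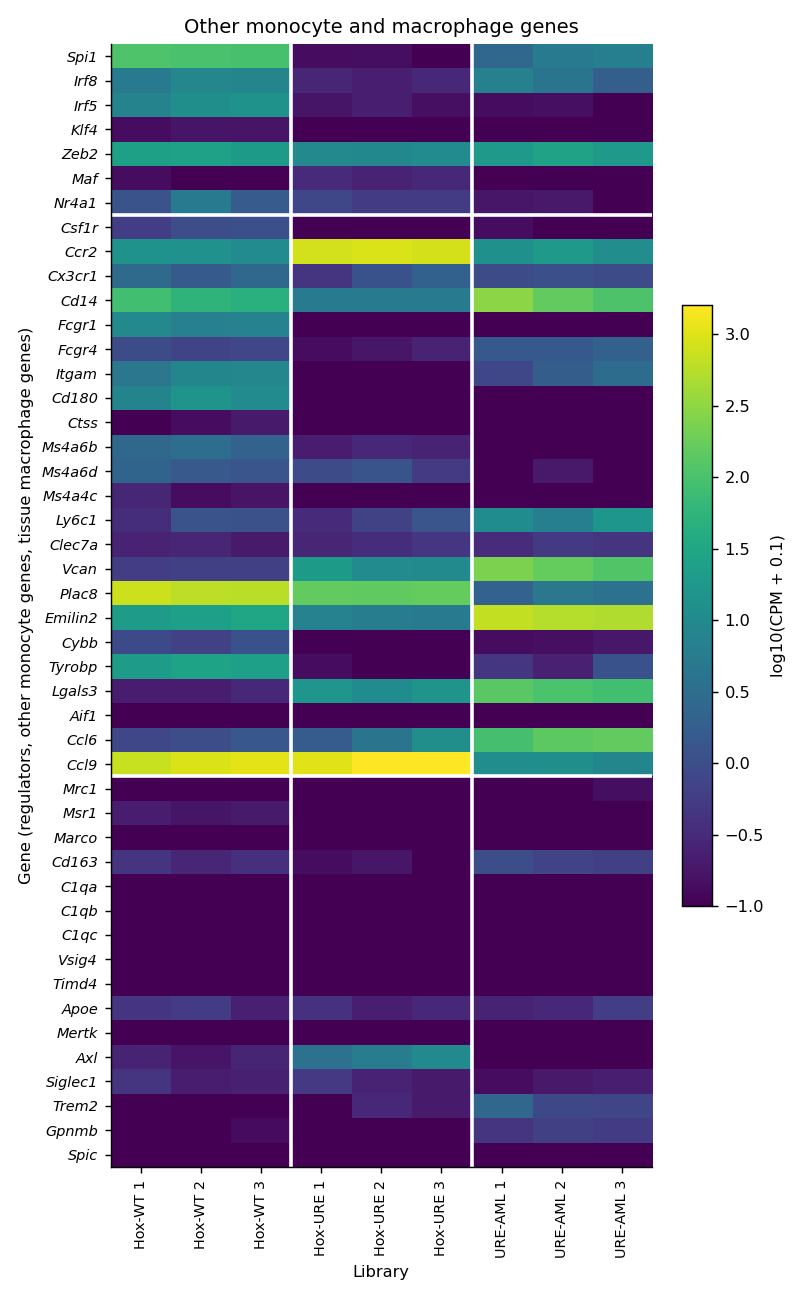
Levels of genes from the lists of monocyte transcription factors (top block), other monocyte genes (middle) and tissue macrophage genes (bottom, 16 genes) in the 9 libraries, coloured by log10(CPM + 0.1). *Ccr2* is bright in Hox-URE, *Emilin2*, *Vcan* and *Lgals3* are brightest in URE-AML, and most of the bottom block stays dark in all lines.

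Genes of mature tissue macrophages were mostly not detected. Of 16 genes typical of tissue macrophages, 10 were at 0 in all libraries of Hox-WT, 11 in those of Hox-URE and 10 in those of URE-AML, among them the complement genes *C1qa*, *C1qb* and *C1qc* and the receptor genes *Marco*, *Vsig4*, *Timd4* and *Mertk* in all 3 lines. Their summed level did not exceed 10.3 CPM in any library. Only 3 were tested, each of which passed the filter through a single line, with 0.131 ± 0.0532, 6.52 ± 3.14 and 0 CPM for *Axl*, 0.264 ± 0.0801, 0.0398 ± 0.0415 and 0.674 ± 0.193 for *Cd163*, and 0, 0.103 ± 0.104 and 1.25 ± 0.985 for *Trem2* in the order Hox-WT, Hox-URE, URE-AML (SD, n = 3).

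Markers of other cells moved with some of the genes. The 12 neutrophil genes summed to 5674 to 9087 CPM for Hox-WT, 2623 to 4011 for Hox-URE and 11501 to 26301 for URE-AML. This was the same order of lines as for *Ly6c2*, *F13a1* and *Lyz2*. The place of Hox-WT above Hox-URE rested on *Mpo*, which gave 63.6% of the mean sum in Hox-WT. The rest of the list had 2882 CPM there, below the 3472 CPM of the whole list in Hox-URE. Of these 12, Hox-URE had 0 called higher and 10 lower relative to Hox-WT (21.3% and 15.9% of all genes). URE-AML had 10 called higher and 1 lower relative to Hox-WT (23% and 20.2%) and 10 and 0 relative to Hox-URE (20.3% and 22.4%). *Elane*, the gene of neutrophil elastase, was at 181 ± 62.4, 9.29 ± 1.29 and 7311 ± 3116 CPM, and *S100a8* at 38.4 ± 9.62, 0.0723 ± 0.0849 and 2791 ± 503 CPM (SD, n = 3), whereas *Mpo*, the gene of myeloperoxidase, was highest in Hox-WT with 5042 ± 1516 CPM against 5.04 ± 4.45 and 192 ± 19. None of the 12 was at 0 in URE-AML, and 1 and 2 were at 0 in Hox-WT and Hox-URE. Mast cell and basophil genes summed to 483 to 838, 1613 to 5892 and 31.4 to 62.8 CPM and were highest in the line with the least *Ly6c2* and *F13a1*, where *Cpa3* gave 72.5% of the sum. Dendritic cell genes summed to 0.286 to 0.525, 24 to 31 and 0.129 to 0.363 CPM, but in Hox-URE the class II gene *H2-Ab1* gave 99% of the sum, and the rest of the list had 0.3 CPM together. *Ctsg*, the gene of cathepsin G, likewise gave 95.8% of the neutrophil sum of Hox-URE. In the order Hox-WT, Hox-URE, URE-AML, erythroid and megakaryocyte genes summed to 6.41 to 8.07, 16.6 to 48.3 and 2.3 to 10.3 CPM. In Hox-URE, *Itga2b* gave 86.1% of that sum. Of the 6 tested, 2 were called higher there than in Hox-WT, *Itga2b* and *Gp9*, and 2 lower, *Gata1* and *Pf4* (21.3% and 15.9% of all genes). For lymphoid genes the ranges were 36.4 to 47.1, 34.5 to 41.2 and 0 to 0.19 CPM, with *Ebf1* giving 99.4% of the sum in Hox-WT and 94.6% in Hox-URE. The part of neutrophil, mast cell, basophil or dendritic cell programs in the levels of the 10 genes was not tested.

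**Figure D5:**
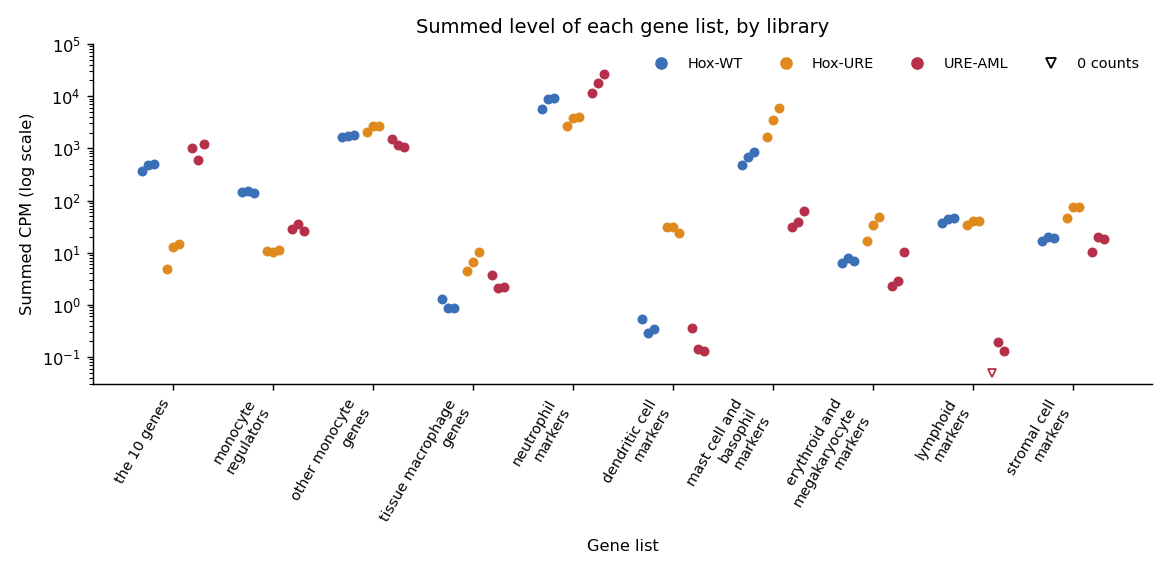
Summed CPM of each gene list by library on a log scale, with an open triangle for a library with 0 counts. The sums of the 10 genes and of the neutrophil markers are lowest in Hox-URE and highest in URE-AML. *Ly6c2* is 71.7% of the sum of the 10 genes in URE-AML, and *Mpo* is 63.6% of the neutrophil sum in Hox-WT. Mast cell and basophil markers are highest in Hox-URE, and the high dendritic sum there is 99% *H2-Ab1*.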

How the data were processed

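Stranded poly-A RNA libraries were made of each line. Reads were quantified by the authors with salmon (GRCm38 in the submitters' processing notes), who deposited estimated counts, given in whole numbers and without normalization to depth. Whether counts were corrected for transcript length, and the transcriptome release, are not given in the sources used here, so a change in transcript use could alter a count. All 9 columns were used.

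Genes were kept by filterByExpr (minimum count 10), so that 13082 of 54347 genes entered the tests and 0.0499% of counts did not. edgeR 4.0.16 (R 4.3.3) was used to fit a quasi-likelihood model to all 9 libraries with line as the factor, with TMM factors of 0.938 to 1.04 and a common biological coefficient of variation of 0.173. Two-sided F tests were adjusted by Benjamini-Hochberg over all genes tested, and calls needed an adjusted p under 0.05 with a more than 1.5-fold change. SE was derived from F, as the size of the log2 fold change over the root of F. Where a line had 0 counts, the fold is a bound from 3 counts per library. Where it had 1 to 10 counts in all, the ratio of counts per total is given with an exact 95% interval, for counting error only. Per-length levels divide counts by the longest protein-coding transcript in GENCODE M21, scaled to the same sum in each library.

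The 10 genes and the other lists were chosen with earlier results of these data known. Named genes were the 10, all listed transcription factors, the strongest 3 called in each direction and the 2 most abundant of each other list, the paralogs, and the nearest gene by pattern. Exceptions are stated where they occur. The code was tested on simulated data. Alternatives were other scalings, no filter, DESeq2 1.42.0, the 6 libraries compared, a replicate block, no fold threshold, summed paralogs and leaving out each library. The figures were drawn with matplotlib 3.10.9. Some genes of the wider lists are counted in them and not reported here by name.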

Additional observations from a re-analysis of the deposited data

How the results depend on the processing

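No alternative turned the direction of a difference in the 10 genes that was called. The number of these genes called higher in URE-AML against Hox-WT was 4, and 2 to 4 when a library was left out; it was 2 without library 1 of URE-AML, where *F13a1* and *Fn1* were lost. The number called lower in URE-AML against Hox-URE was 1, but 2 with no filter on low counts, 2 with DESeq2, and 1 to 2 when a library was left out (2 without library 1 of Hox-URE), *Ly86* being added each time. Small differences that were not called turned sign in 3 other genes. *Ly6c1* in Hox-URE against Hox-WT (log2 fold change -0.33) ranged from -1.02 to 0.11 and was positive without library 1 of Hox-URE. *Ccr2* in URE-AML against Hox-WT (0.17) ranged from -0.05 to 0.30 and was negative without library 2 of URE-AML. *Cx3cr1*, a gene of Ly6C-low monocytes named for this reason alone, ranged from -0.74 to 0.36 in URE-AML against Hox-URE (-0.29) and was positive without library 3 of Hox-URE. The causes were not tested.

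The labels number the libraries without saying that a number marks a shared culture. Deviations of same-numbered libraries correlated with r of 0.271, 0.0995 and 0.174 in Hox-URE and Hox-WT, and of 0.01 to 0.0923 in the other pairs of lines, so the pairing was not used. Every library correlated best with its own number in Hox-URE and Hox-WT, and, with r of at most 0.0923, in URE-AML and Hox-URE. With the replicate number as a block, 4908, 5679 and 5584 genes were called in place of 4873, 5648 and 5591, and the called genes among the 10 were 0 higher and 8 lower, 4 and 5, and 4 and 1, the added gene being *Lyz2*. Depth limits *Mpeg1*, *Ly86* and *Fn1*, with under 60 counts in each library, and leaves a level under 3 counts in a library undecided for *Lyz1* and *Ms4a6c*.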
